A study of Xenopus laevis with 2 samples.

Results

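Forkhead genes encode transcription factors that share a winged-helix DNA-binding domain. Their peaks of accessible DNA were examined here in embryos of the African clawed frog *Xenopus laevis* before zygotic genome activation (ZGA). Members were genes that RefSeq lists on assembly v10.1 under a symbol made of fox, a letter from a to s and a number, with the ending .L or .S. The rule found 81 genes among 34461 protein-coding genes on the 18 assembled chromosomes. They belong to 45 gene names, called stems below.

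CATaDa (chromatin accessibility profiling using targeted DamID) reads open DNA from adenine methylation that an untethered Dam methylase leaves at GATC motifs. Wild-type (WT) embryos were injected as zygotes, at the 1-cell stage, with Dam mRNA (2.3 ng of the construct), and whole embryos were taken at 4.5 h after fertilisation, when they had 256 cells. The study pooled 500 embryos for each of 2 independent biological replicates, and both belonged to this single injected group. Non-injected control embryos are not analysed here, and whether the authors used them in calling the peaks is not given in the sources used here.

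Several forkhead proteins can bind their sites in compacted DNA, and those of the FoxA group are the classical pioneer factors. Foxh1 is supplied to the egg and partners Smad2 and Smad3, the effectors of Nodal signalling, at mesendodermal genes. Most other members are switched on only after ZGA, in the organiser, neural plate, ectoderm, mesoderm or later organs, while those of the FoxJ2/J3, FoxK, FoxM, FoxN2/N3, FoxO and FoxP1/P4 groups are used broadly.

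*X. laevis* is allotetraploid, and most genes have a copy on a long (L) and on a short (S) chromosome of each homeologous pair. Of the 81 members 42 were L and 39 were S copies. Both copies were listed for 36 stems. Only an L copy was listed for 6 stems, foxa2 and foxh1 among them, and only an S copy for 3 (foxb2, foxm1 and foxp4). Forkhead genes were short, with a median length of 5.19 kb against 17.2 kb for all protein-coding genes, and 50 of the 81 were under 10 kb.

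Each replicate was described by the authors' list of broad peaks, which are stretches enriched in mapped fragments. Replicate 1 held 325974 peaks and replicate 2 held 277551. The lists hold no read counts, so sequencing depth is unknown and no counting error could be given. Values below refer to a window of the gene and 10 kb on each side. Coverage is the percentage of its base pairs that lie in peaks, and a shared peak is a place where peaks of both replicates overlap by at least 1 bp. Of the 81 windows 26 held another gene as well, and because some neighbouring windows overlapped they merged to 77. The spread between replicates is the only error, and with a single group no test between conditions was possible. A window without a peak does not show that its DNA was closed, because GATC motifs are unevenly spaced and their density was not taken into account.

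The member windows held 568 peaks in replicate 1 and 488 in replicate 2. Of these, 68.3% and 79.7% were shared, against 66.6% and 77.8% of all peaks on assembled chromosomes. The authors' fold enrichment, the ratio of the fragments in a peak to the background of the peak caller, had a median of 4.32 and 4.47 in these windows and of 4.34 and 4.50 over all peaks. In height and recurrence the peaks near forkhead genes were therefore close to those elsewhere. The replicates gave 394 shared places, of which 261 (66.2%) lay in a member gene.

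The median coverage of the 81 windows was 5.27% in replicate 1 and 4.45% in replicate 2, a mean of 4.86% ± 0.579 (SD, n = 2). Over all protein-coding genes it was 5.12% and 4.74%, a mean of 4.93% ± 0.273 (SD, n = 2). Forkhead genes were above the general median in replicate 1 and below it in replicate 2, so the difference was smaller than that between replicates. This comparison was not matched for length. Among genes under 10 kb, members had 4.69% and 4.07%, below the 5.29% and 4.89% of all protein-coding genes of that length. The 27 sox genes under 10 kb had 4.13% and 4.18%. Among genes of 10 kb or more, members had 5.39% and 5.17%, above the 5.06% and 4.69% of all. The 34 sox genes, another family of developmental transcription factors, had medians of 4.56% and 4.25%. Peaks were present at a median of 1.22 and 0.997 per 10 kb near forkhead genes and of 1.25 and 1.05 per 10 kb near all protein-coding genes. Of the 81 members, 38 (46.9%) lay above the median of all protein-coding genes.

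Single members spread widely around this average, from 0% to a mean of 11.5%. Coverage was higher in replicate 1 for 45 members and in replicate 2 for 34, and the median difference between the replicates of a member was 1.08 percentage points. Spearman's rho between the replicates was 0.842 across the 81 members and 0.745 across all protein-coding genes, given as a description because neighbouring genes share peaks. Small differences cannot be ordered: a short window with a single peak, such as that of foxl1.S, stood at 1.38% and 1.57%, so that 1 peak more or less moves a member by about as much. The plot of members by replicate shows both values of each copy of the 36 pairs and of 4 L copies without a partner.

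**Figure D1:**
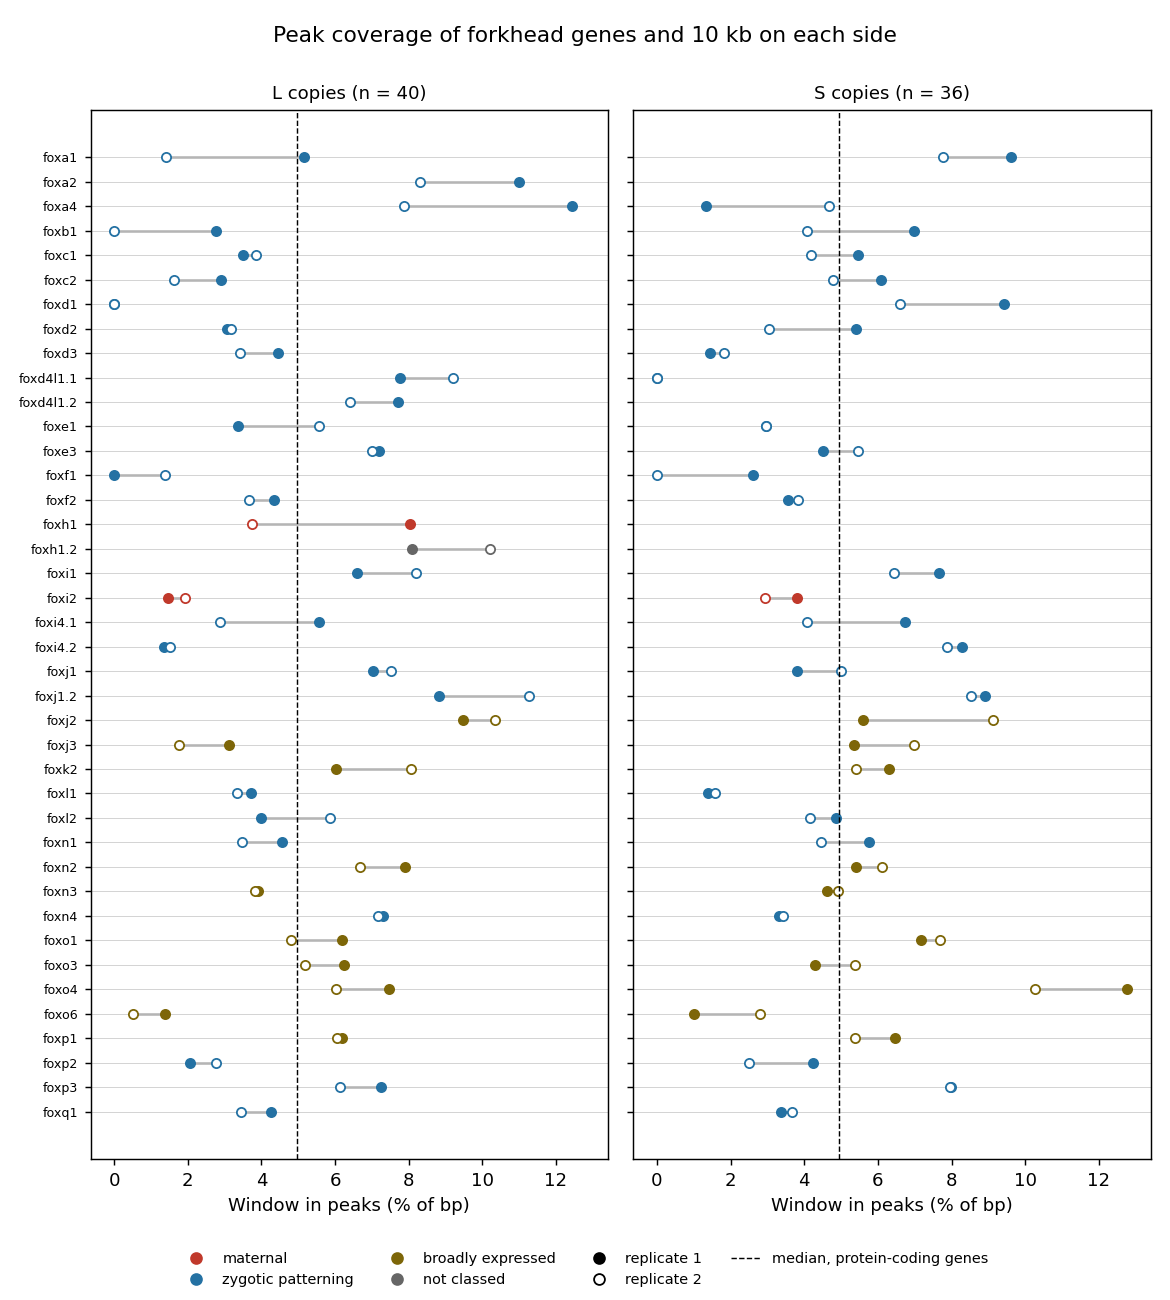
Peak coverage (percentage of window base pairs in peaks, x axis) of the 36 forkhead pairs and of foxa2, foxd4l1.2, foxh1 and foxh1.2, with L copies on the left and S copies on the right; filled points are replicate 1, open points replicate 2, colours give the class of the gene and the dashed line the median of all protein-coding genes. The members shown range from 0% for foxd1.L and foxd4l1.1.S to 12.8% and 10.3% for foxo4.S.

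A shared peak was found in 73 of the 81 windows (90.1%), against 95.1% of all protein-coding genes. Short genes have shorter windows, and among genes under 10 kb the share was 84.0% of 50 members against 89.5% of all. All 31 members of 10 kb or more had one, against 97.9% of all protein-coding genes of that length. The 8 members without a shared peak were foxa1.L, foxb1.L, foxb2.S, foxc2.L, foxd1.L, foxd4l1.1.S and both copies of foxf1, which marks lateral plate mesoderm. All 8 were under 10 kb. No peak in either replicate was listed for foxd1.L and foxd4l1.1.S, that is for 2.47% of members against 0.882% of all protein-coding genes, or for 4% against 2.29% among genes under 10 kb.

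Within the gene itself, 53 of 81 members (65.4%) held a shared peak, against 72.6% of all protein-coding genes. This order turned with length. Among genes under 10 kb, 25 of 50 members (50%) held a shared peak in the gene, against 41.1% of all, and 18 of 27 sox genes (66.7%) did. Among genes of 10 kb or more the share was 90.3% of 31 members and 88.4% of all. Pooled over the 50 short members, peaks covered 8.88% and 7.58% of the gene bodies, against 6.08% and 5.62% for all protein-coding genes of that length. Within 1 kb outside the genes the same members had 4.97% and 5%, against 4.90% and 4.66%, and at 1 to 2 kb outside they had 3.05% and 4.28%, against 5.19% and 4.86%. Coverage of the short forkhead genes was thus above that of other short genes inside the genes in both replicates, close to it in the adjoining 1 kb and below it at 1 to 2 kb. Member by member this was not uniform, since 20 of the 50 short members had more coverage inside the gene than in the rest of the window in both replicates and 18 had less.

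The table gave no strand, so a promoter could not be told from the other end of a gene. Within 1 kb of either gene end, 28 of 81 members (34.6%) had a shared peak, against 34.2% of all protein-coding genes. For genes under 10 kb these were 22 of 50 (44.0%) and 35.4%.

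The maternal foxh1 was represented by foxh1.L, on chromosome 6L from 162624723 to 162633316, and no gene of the table was named foxh1.S. Its coverage was 8.04% in replicate 1 and 3.73% in replicate 2, with 7 and 3 peaks. This difference of 4.31 points was exceeded by only 1 other member, foxa4.L. The mean of 5.89% placed foxh1.L at rank 29 of the 81 members and at percentile 65.6 of all protein-coding genes.

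All 3 peaks of replicate 2 at foxh1.L had a counterpart in replicate 1. The highest lay inside the gene, from 162629930 to 162630362, with identical boundaries in both replicates and a fold enrichment of 7.38 and 9.50. A weaker one nearer the lower end of the gene (162626247 to 162626556 in replicate 1, 162626153 to 162626501 in replicate 2) had 3.62 and 3.29. The third, 9.78 kb above the gene in replicate 1 and inside another gene, had 4.53 and 3.95. The 4 further peaks of replicate 1 reached 2.53 to 5.85 and included 1 inside the gene. Of the 3 shared peaks of foxh1.L, 2 lay in the gene, and the highest made up 433 of the 909 shared bp in the window.

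Against foxh1.L, the 53 zygotic patterning members had a median coverage of 4.51% and 4.06%, a mean of 4.29% ± 0.317 (SD, n = 2). In replicate 1, 46 of the 53 were below foxh1.L, and in replicate 2 only 24 were. The same 24 were below it in both replicates, and 7 were above it in both. The position of foxh1.L among zygotic members thus depended on the replicate, and its median excess was within its own spread.

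The paralogue foxh1.2.L lies 699 kb away on the same chromosome (163332297 to 163338123) and was not assigned to a class. It was among the most covered members, with 8.10% and 10.2% and rank 6. It had 6 and 7 peaks, and all 6 of replicate 1 were shared, but 3 of the shared peaks lay inside the neighbouring gene fam83h.L. The highest, from 163330315 to 163330695 and 1.60 kb below the gene, again had the same boundaries in both replicates, with a fold enrichment of 11.2 and 10.1. The highest peaks of foxh1.L and foxh1.2.L thus each had the same boundaries in both libraries. Identical boundaries were also found at other members, foxp1.L, foxp2.L and foxn1.S among them. Their share over all peaks was not computed, so they cannot be read as a trait of the genes named here.

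The other gene classed as maternal was foxi2. Its copies were sparsely covered, foxi2.L at 1.48% and 1.92% and foxi2.S at 3.80% and 2.92%. The window of foxi2.L held a single peak in each replicate, at 18617460 to 18617805 and 18617421 to 18617870 of chromosome 7L, beyond the upper end of the gene. It was high, with a fold enrichment of 11.6 and 9.21. The shared peak of foxi2.S, 3.62 kb and 3.87 kb above the gene, reached only 4.54 and 4.06. All 3 members classed as maternal had a shared peak in the window but only foxh1.L had one in the gene, and the 3 did not form a common level. Whether members of the other classes are also supplied to the egg was not checked.

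**Figure D2:**
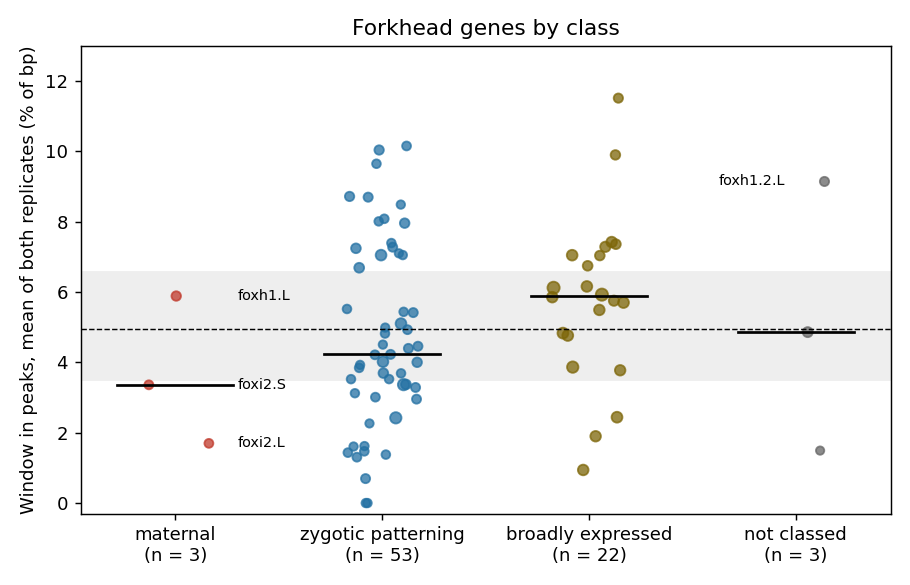
Mean peak coverage of both replicates (y axis, percentage of window base pairs) for each forkhead gene by class, with larger points for longer genes; black lines are class medians, the dashed line and grey band the median and middle 50% of all protein-coding genes. The maternal foxh1.L and foxi2 copies lie between 1.70% and 5.89%, inside the range of the zygotic members.

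The 22 broadly expressed members had medians of 6.11% and 5.71%, above those of the zygotic patterning members in each replicate. The gap of 1.60 and 1.65 points was larger than the spread of either class median between replicates. That spread does not measure variation among genes, and the classes overlapped. The lower and upper quartiles of mean coverage were 4.78% and 7.05% for broadly expressed and 3.12% and 7.05% for zygotic patterning members. Above the median of all protein-coding genes lay 15 of 22 broadly expressed members (68.2%) and 21 of 53 zygotic ones (39.6%). Gene length moved with class: the median was 46.7 kb for broadly expressed and 3.44 kb for zygotic patterning members, and the part of length in the gap was not tested. A shared peak was found in all 22 broadly expressed windows and in 46 of 53 zygotic ones (86.8%), against 95.1% of all protein-coding genes. By length, the share of all protein-coding genes was 97.9% at 10 kb or more and 89.5% under 10 kb. Inside the gene a shared peak was found in 20 of 22 broadly expressed members (90.9%) and 31 of 53 zygotic members (58.5%). Among all protein-coding genes this share was 88.4% for those of 10 kb or more and 41.1% for those under 10 kb.

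The highest coverage of all members was that of foxo4.S, a FoxO factor of insulin and stress signalling, at 12.8% and 10.3% with 6 shared peaks. Its highest peak lay 7.49 kb below the gene (chromosome 8S, 50002767 to 50003159 in both replicates) with a fold enrichment of 10.2 and 13.1. The cilia regulator foxj1.2.L followed the organiser gene foxa4.L with 8.82% and 11.3%. Its peaks at 117082190 to 117082569 and at 117105731 to 117106108 of chromosome 9_10L had identical boundaries in both replicates, as did 3 peaks of foxj2.L, which had 9.47% and 10.3% with 7 shared peaks. The first of these foxj1.2.L peaks lay inside the neighbouring gene dnaja3.L. Of the 3 foxj2.L peaks, that from 6124837 to 6125243 of chromosome 7L lay inside LOC108695714. That from 6151326 to 6151702 lay inside c12orf57.L. The FoxO class was not uniformly covered, since foxo6.L had 1.38% and 0.506% and foxo6.S 0.993% and 2.81%, both without a shared peak in the gene.

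Among early zygotic genes, foxa4, which is expressed in the organiser and notochord, had coverage of 12.4% and 7.87% at its L copy and of 1.34% and 4.68% at its S copy. The floor plate and endoderm gene foxa2.L had 11% and 8.30%. Its peak from 34770255 to 34771015 of chromosome 5L, across the lower end of the gene, had a fold enrichment of 5.47, and the overlapping peak of replicate 2 had 5.39. The copies foxa4.L and foxa2.L were in the top 6 by mean coverage, while foxa4.S was at rank 64. The third FoxA gene, the endodermal foxa1, had 5.17% and 1.41% at the L copy and 9.62% and 7.78% at the S copy. At foxa1.S 1 of 3 shared peaks (3235234 to 3236351 of chromosome 8S in replicate 1, 4.47 kb below the gene) was among the widest overlaps of the family at 1103 bp. The highest of the 3, 9.4 kb above the gene in replicate 1, had a fold enrichment of 12.1 and 7.20. No shared peak was held by foxa1.L.

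The ectodermal activators foxi1 and foxi4 differed by copy. Both foxi1 copies were well covered, at 6.58% and 8.20% for foxi1.L and at 7.66% and 6.45% for foxi1.S, and both had a shared peak across a gene end. At foxi1.L this peak ran from 39082874 to 39083967 of chromosome 3L in replicate 1, with an overlap of 1078 bp and a fold enrichment of 5.49 and 4.94. Of the adjacent foxi4 genes, foxi4.1.L had 5.57% and 2.89% and foxi4.1.S had 6.75% and 4.09%. The second gene of the pair, foxi4.2, had 1.34% and 1.52% at the L copy but 8.29% and 7.87% at the S copy. The windows of foxi4.1.S and foxi4.2.S overlap and share a peak from 9242782 to 9243987 of chromosome 1S in replicate 1.

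Shared peaks of foxb1 and foxc1 lay outside the genes. The neural plate gene foxb1 had no peak in replicate 2 and 2.76% in replicate 1 at the L copy, against 6.98% and 4.06% at the S copy. At foxb1.S the peak from 57517119 to 57517604 of chromosome 3S had the same boundaries in both replicates, with a fold enrichment of 4.48 and 7.99. The paraxial mesoderm gene foxc1 had 3.51% and 3.87% at the L copy and 5.47% and 4.18% at the S copy, with no shared peak inside either. At foxc1.L the peak from 91284483 to 91284928 of chromosome 6L was again placed identically, with 4.21 and 6.54.

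The neural crest gene foxd3 had a shared peak inside the L copy and a total of 4.44% and 3.42%, against 1.43% and 1.81% at the S copy. The single peak of foxd3.S, 0.868 kb above the gene, began at the same base in both replicates (65726328 of chromosome 4S) with a fold enrichment of 3.76 and 9.75. The early neural ectoderm gene foxd4l1.1 had 7.77% and 9.21% at the L copy, with all 3 peaks of each replicate shared, and its neighbour foxd4l1.2.L had 7.70% and 6.40%. Of these genes, foxd4l1.1 differed most between its copies, since foxd4l1.1.S held no peak. The uppermost shared peak of foxd4l1.1.L, 8.79 kb above the gene in replicate 1, lay inside another gene, LOC108705665. That peak was 1595 bp wide in replicate 2.

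The highest shared peaks of the family lay inside long genes. The top peak was in foxn3.L, a cell cycle checkpoint factor gene, from 77372685 to 77373040 of chromosome 8L with a fold enrichment of 19.9 and 16.5. Next came a peak of foxp1.L at 141543753 to 141544096 of chromosome 4L with 17.5 and 14.2. The thymus regulator gene foxn1.S held the following pair, at 3973071 to 3973407 of chromosome 2S with 17.0 and 12.8 and at 3935921 to 3936257 with 16.7 and 12.6. The list closed with 2 peaks of foxp1.S on chromosome 4S, at 120312754 to 120313105 with 14.6 and 13.2 and at 120141565 to 120141906 with 14.7 and 12.9. The widest overlap, 1148 bp, was also in foxp1.S, between a peak from 120380995 to 120382439 in replicate 1 and from 120380988 to 120382142 in replicate 2.

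The foxp1 copies span 613 kb and 629 kb and held 95 and 86 peaks (L) and 93 and 76 peaks (S), so a high maximum was drawn there from many peaks. Their coverage was ordinary, at 6.20% and 6.05% for foxp1.L and at 6.46% and 5.39% for foxp1.S.

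The comparison of homeologous copies asked whether the L and S genes of a pair were covered alike. The median of L minus S over 36 forkhead pairs was -0.716 points for replicate 1 but -0.0127 points for replicate 2, against -0.321 and -0.362 over 7760 pairs of all protein-coding genes. The forkhead value differed more between replicates than from that of all pairs. The S copy was higher in both replicates in 14 pairs (38.9%) against 42.3% of all pairs, and the L copy in 10 pairs (27.8%) against 31.5%. In the remaining 12 the replicates gave opposite orders. A shared peak was present in both windows of 30 pairs, in the L window only for foxd4l1.1, in the S window only for 4 pairs (foxa1, foxb1, foxc2 and foxd1) and in neither for foxf1. Over all 7760 pairs the counts were 7228 with both, 207 with L only, 298 with S only and 27 with neither. Both gene bodies held a shared peak in 20 pairs (55.6%), against 67.5% of all pairs. Forkhead genes had the shorter median length, and no share of pairs matched for length was computed.

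**Figure D3:**
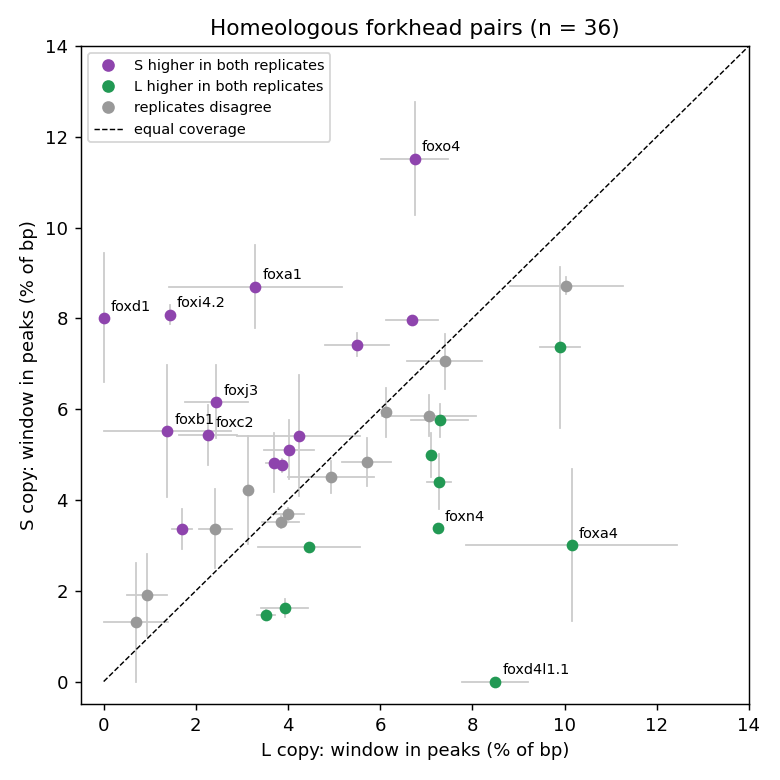
Mean peak coverage of the L copy (x axis) and the S copy (y axis) of 36 forkhead pairs, in percentage of window base pairs; grey lines join the values of both replicates, the dashed line marks equal coverage and names are given where the copies differ by more than 3 points. The foxd1 pair lies on the S axis at 8.01% and the foxd4l1.1 pair on the L axis at 8.49%.

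Differences over 3 points in the mean were found in 10 pairs (27.8%) against 24.1% of all pairs. This share and those below were not matched for gene length, and 1 peak moves a short window more than a long one. The largest difference was that of foxd4l1.1, with L above S by 8.49 points, a size reached by 0.631% of all pairs. Part of this L coverage came from the shared peak inside LOC108705665, and its part in the difference was not computed. Then followed foxd1, with S above L by 9.43 and 6.59 points (a mean of 8.01, reached by 0.773% of pairs). After it stood foxa4, with L above S by 7.14 points (1.43% of pairs). Next came foxi4.2, foxa1 and foxo4, where S exceeded L by 6.65, 5.41 and 4.77 points (2.13%, 5.49% and 8.36% of pairs). These 6 pairs were chosen as the largest differences with the same order in both replicates, so that agreement was set by the choice. The SD over replicates was largest for foxa4, 5.59 points, and 2.01 points or less for the others.

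The stretch without any peak around foxd1.L, a gene of neural and mesodermal patterning, extended over 34.8 kb in replicate 1 and 47.3 kb in replicate 2, and that around foxd4l1.1.S over 54.6 kb and 87.1 kb. The partner foxd1.S held 4 shared peaks. The highest, from 171384814 to 171385167 of chromosome 1S and 5.93 kb below the gene in replicate 1, had a fold enrichment of 15.1 and 8.10. The peak inside foxd1.S had 9.71 and 4.35. How reads that fit both copies were placed is not given in the sources used here, and its part in these differences was not tested.

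In foxa4 the copies differed in number of peaks but not in the place of the main one. The peak inside foxa4.L (29943999 to 29944313 of chromosome 4L) began 2095 bp from the lower end of the gene, and that inside foxa4.S (930650 to 930964 of chromosome 4S) began 2108 bp from it, in genes of 3451 and 3444 bp. Both were 315 bp wide in replicate 1 and 393 bp wide in replicate 2. The fold enrichment was 7.87 and 7.20 in L and 4.93 and 5.41 in S. Strand was not known, so a pair whose copies run in opposite directions could not be matched by distance from the lower end. By that distance, only foxp1 among the other pairs had shared peaks in both copies starting within 100 bp of the same place. Its copies held 65 (L) and 59 (S) shared peaks in the gene, so this match was the closest of many combinations and is not comparable to that of foxa4.

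**Figure D4:**
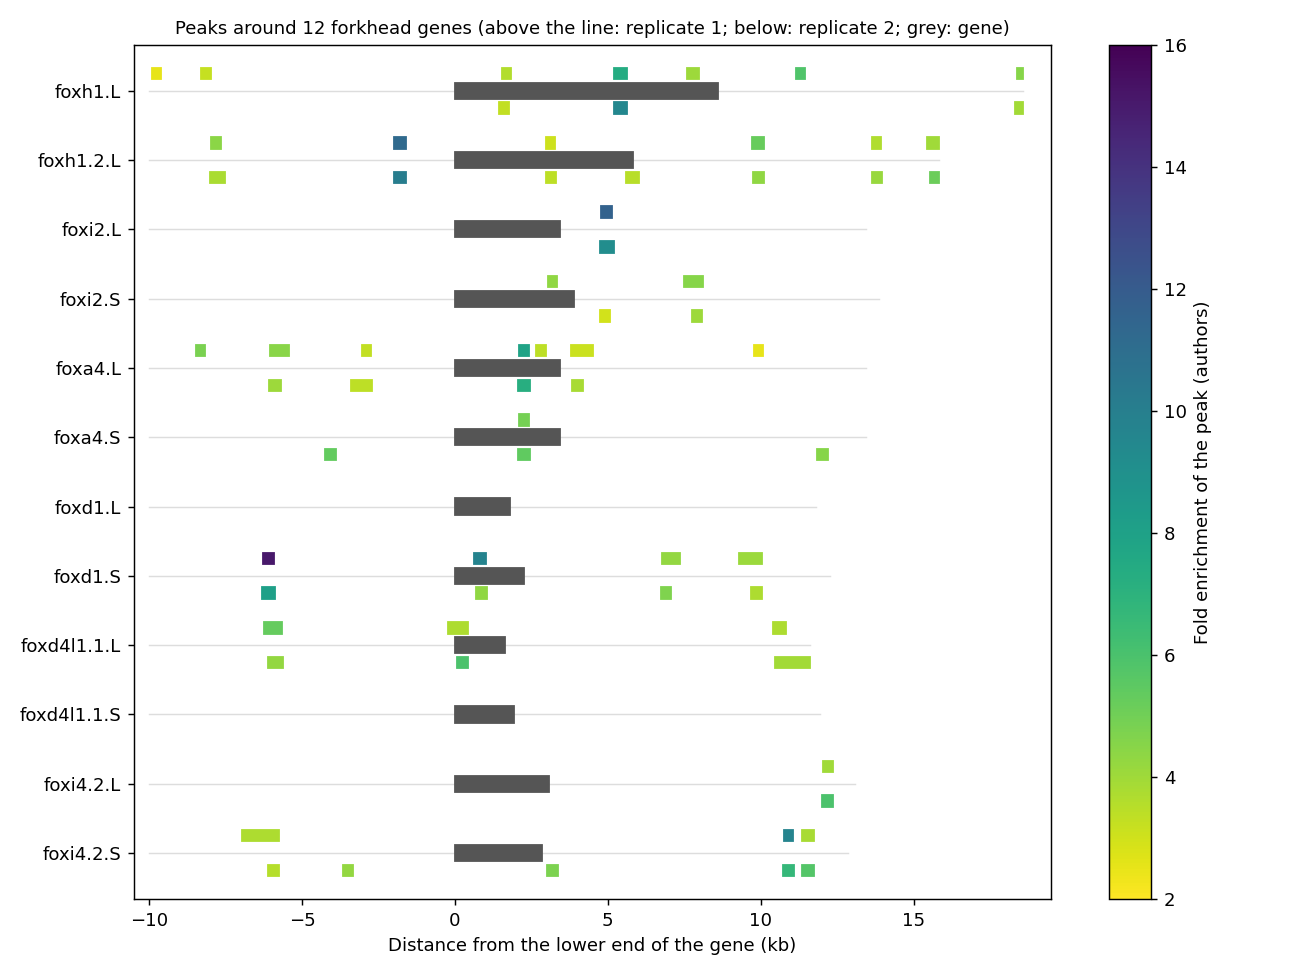
Peaks of replicate 1 (above) and replicate 2 (below) around 12 forkhead genes (grey), against the distance from the lower end of the gene in kb, with colour giving the authors' fold enrichment. The peak inside foxa4 lies at the same place in both copies, while foxd1.L and foxd4l1.1.S show no peak in either replicate.

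Genes linked to the maternal member were read as lists. Of 16 copies of the Nodal pathway genes smad2, smad3, smad4, eomes, gsc, mix1, nodal and lefty, 15 had a shared peak in the window and 11 in the gene, with median coverage of 3.98% and 3.90%. Among all protein-coding genes these shares were 95.1% and 72.6%. The ZGA factors vegt, sox3, pou5f3.2, pou5f3.3 and otx1 were listed as maternal without a check of their expression. Of their 10 copies, 8 had a shared peak in the window and 5 in the gene, with medians of 5.19% and 3.84%.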

How the data were processed

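The authors processed paired reads with the damidseq pipeline, mapped them with Bowtie2 to assembly v10.1 and called broad peaks with MACS 3.0.1 on each replicate. The caller's control and cutoffs, and the placing of reads with several matches, are not given in the sources used here. The deposited files hold peak positions, printed counting from 1. The authors' fold enrichment is a ratio to the caller's background. The deposited -log10 p was not used, and the -log10 q served as a filter. The deposited score was not used. The lowest -log10 q was 1.01 and 1.00. No per-sample column was left unmapped.

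Windows, coverage and overlaps were computed with Python 3.11.15, numpy 2.4.6, pandas 2.3.3 and scipy 1.17.1, and checked on simulated intervals. No differential test was run. Even with 2 libraries against 2, an exact test could not go below p = 0.333, and here there were 2 libraries in all. The SD of a median is over the replicates' medians. Gene positions came from the RefSeq gene table; symbols such as foxred1 do not match the rule.

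Classes were assigned from the known expression of each gene, and foxh1.2, foxb2 and foxr1 were not classed. Expression was not measured here, so the classes do not separate all maternally supplied members from the rest. The zygotic patterning class was wider than its name, since it also held foxp3 and the thymus regulator foxn1. Named genes were foxh1 and foxi2, early zygotic members, the 6 most covered and the peak-free members, the 6 largest L to S differences of the same sign in both replicates, the 6 highest shared peaks and the 3 widest overlaps. Other members were named after their values were seen. Members, classes and lists were chosen with earlier results of these data known. Alternatives were the peaks in the upper 50% by fold enrichment, a minimum -log10 q of 2, windows of 5 and 20 kb, 500 bp at gene ends, 50% overlap, a stricter symbol rule, genes under 10 kb and each replicate alone. Not every counted member is reported here by name.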

Additional observations from a re-analysis of the deposited data

How the results depend on the processing

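Of 49 alternative values, 43 stayed within the spread between replicates or within 1.5 times the main count, and 6 moved. The values from a single replicate are counted among the 43. They set that spread, so they stayed within it by construction and do not show that a result is stable. With the upper 50% of peaks by fold enrichment, median coverage fell from 4.86% to 2.15%, peaks per 10 kb from 1.11 to 0.461, foxh1.L from 5.89% to 2.46%, the zygotic median from 4.29% to 1.96% and members with a shared peak at a gene end from 28 to 17. With 500 bp instead of 1 kb, 18 members had a shared peak at a gene end. These alternatives keep fewer peaks or less sequence by construction.

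Using a single replicate, median coverage ranged from 4.45% to 5.27%, peaks per 10 kb from 0.997 to 1.22, the L minus S median from -0.716 to -0.0127 points, foxh1.L from 3.73% to 8.04% and the zygotic median from 4.06% to 4.51%. The L minus S median was -0.364 points in the mean of both replicates and kept its sign in every alternative, down to -0.0127 points. At 20 kb on each side it was -0.0350 points and 11 pairs, in place of 14, had the higher S copy in both replicates. Protein-coding genes under 10 kb had a median coverage of 5.09% in the mean of both replicates, against 4.38% for forkhead genes of that length. With equal numbers of peaks, chosen after seeing the data, coverage was 4.41%, L minus S was -0.0254 points and foxh1.L was 4.80%.

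Values of foxh1.S under other settings were not computed, because no gene of the table has that symbol. No pairing of samples between conditions was possible because both samples belong to a single group. The L and S copies were compared within each replicate. Depth is unknown, which limits every comparison of peak number between the replicates.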
